A study of Homo sapiens with 12 samples.

Results

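The kinesin superfamily motors were taken as every gene of the array's probe annotation whose symbol is KIF followed directly by a number and an optional letter, together with KIFC1 to KIFC3. The rule gave 41 genes with 57 probes, of 20046 genes named by the annotation. It leaves out kinesins with other names, such as CENPE, and accessory proteins, such as the light chains. Values came from 12 Illumina bead arrays of total RNA from MDA-MB-231, an established triple-negative line of human breast cancer. For 6 arrays the cells had received a gapmer that targets CYTOR (LINC00152), a long noncoding RNA, and for 6 a control gapmer. These gapmers are short antisense strands with locked nucleic acid (LNA) bases, and RNase H cuts the RNA that they pair with. Cells of both groups were transfected with 30 nM LNA by lipofection and were incubated for 24 h. All cells were of 1 line. The labels leave unsaid whether each replicate was its own culture, so the p-values cover only the spread among these arrays, which may be technical. They record 2 batches, with 1 CYTOR LNA and 3 control arrays in batch 1 and 5 CYTOR LNA and 3 control arrays in batch 2.

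Kinesins are motor proteins that use ATP to move along microtubules. One set builds the mitotic spindle, moves chromosomes and completes cell division. Another carries vesicles, organelles and other cargo in interphase cells, and some work in cilia or take microtubules apart. The mRNAs of many mitotic kinesins rise before division in cycling cells, so in a bulk culture fewer dividing cells and less RNA per cell cannot be told apart.

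The brightest CYTOR probe was 2.15-fold lower after its LNA, with log2 fold changes of -0.67 and -0.13 at its other probes (brightest probe 6.74 ± 0.10 against 7.83 ± 0.12, mean ± SD of deposited log2 values, n = 6 each). The median of each array was 6.53, and correlations between arrays were 0.991 to 0.998. Markers of the mesenchymal line were all tested, 8 of 8, with VIM at 13.3 in both groups, and CD44 was called lower (-0.21). Of 10 luminal epithelial markers 7 were tested, with XBP1, EPCAM, ERBB2 and KRT19 the brightest and ESR1, FOXA1 and TFF1 dim, and limma called 0. Their summed linear signal was 2060 to 2147 after the CYTOR LNA and 2078 to 2159 in controls. Of 6 fibroblast markers COL1A1 and PDGFRB were tested and not called, while COL1A2, COL3A1, DCN and LUM were dim, with sums of 543 to 579 and 547 to 572. Of 7 leukocyte markers CD3D, CD3E, NKG7 and PTPRC were dim. CD68 was at 10.9 after the CYTOR LNA and 10.8 in controls and not called, nor was CSF1R, and CD14 was called higher (0.33, SE 0.059). The summed linear signal of these 7 was 2549 to 2821 after the CYTOR LNA and 2346 to 2727 in controls, so the groups overlapped, and the part of any of these marker levels in the kinesin results was not tested.

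Of the 41 kinesin genes, 28 had a probe with an average over all 12 arrays at or above 6.52, the median of all probes, and were tested. KIF14 and KIF2A fell, KIF15 and KIF4A rose, and 24 were not called (limma with batch as a term, Benjamini-Hochberg adjusted p below 0.05 over 23662 probes). The 2 falls among 28 genes compare with 5.4% of 12714 tested genes called lower, and the 2 rises with 2.49% called higher. In either direction 7.89% of all genes were called. With 4 of 28 members called, 14.3%, the difference from the background amounts to few genes and was not tested. The median log2 fold change was 0.02 over the 28 members and 0.00 over all tested genes. All 4 called genes work in mitosis or cytokinesis, and each has 1 probe on the array, so no second probe checks them. Of the 12 tested mitotic members 4 were called, of 11 tested transport motors 0, and of 5 tested ciliary or other kinesins 0, by limma. At an unadjusted p under 0.05 the counts were 5, 3 and 0, which is 28.6% of the 28 members against 21.6% of all tested genes. The 3 transport motors are 27.3% of those tested, near the share of all genes. Whether the shares differ between these role groups was not tested. The roles were assigned with earlier results of these data known, and KIF2A, counted as mitotic, also acts in interphase.

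**Figure D1:**
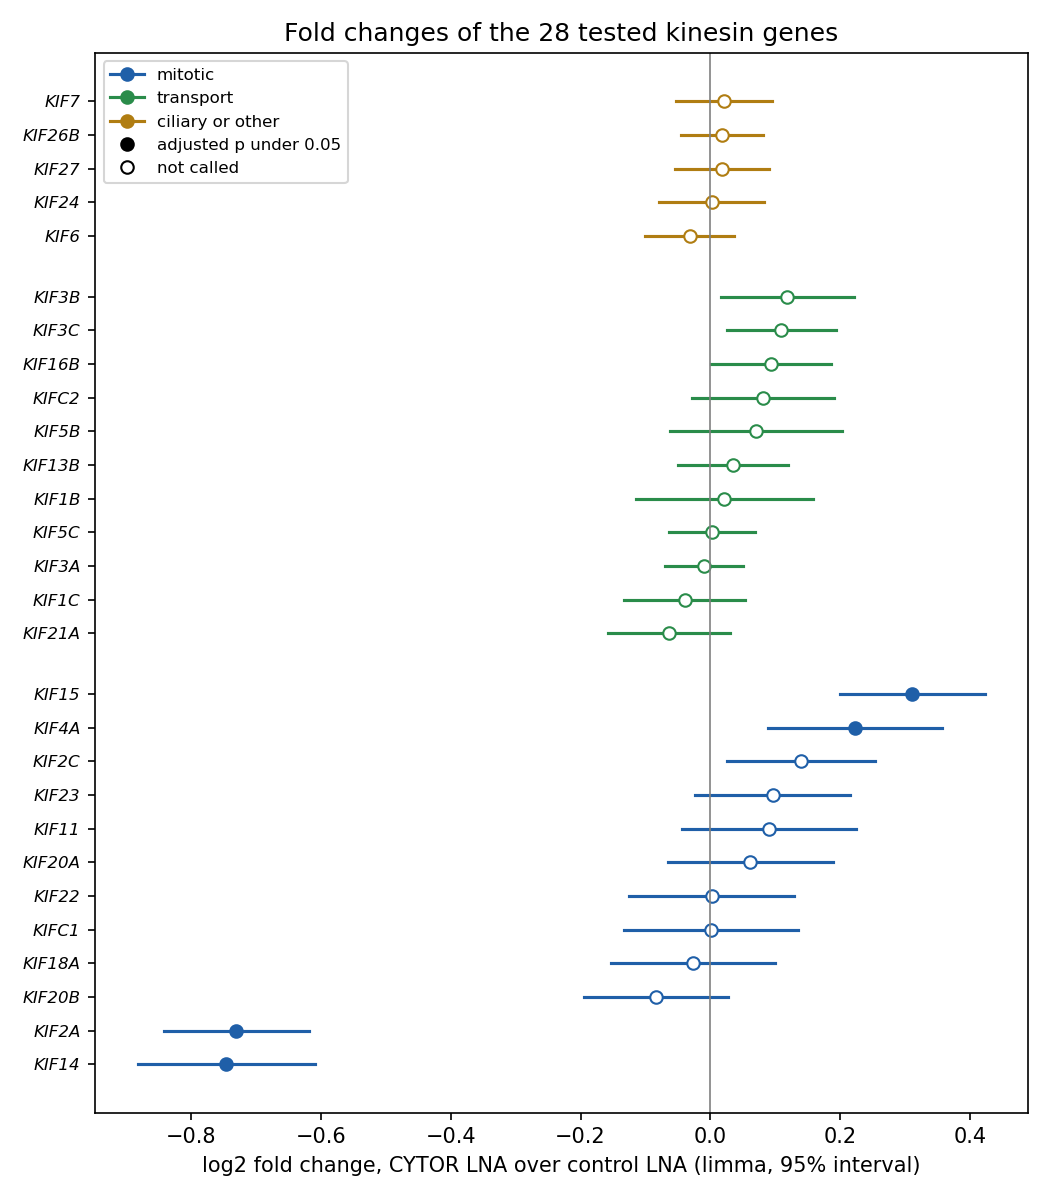
Log2 fold changes (horizontal axis) of the 28 tested kinesin genes with 95% intervals from limma, grouped by role; filled points have an adjusted p under 0.05. KIF14 and KIF2A lie at -0.75 and -0.73, KIF15 and KIF4A at 0.31 and 0.22, and the other 24 between -0.08 and 0.14.

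KIF14 is a kinesin of family 3 that is required for cytokinesis, where it acts at the midbody with citron kinase and PRC1. Its values in the 6 control arrays had a lowest of 8.45, a median of 8.66 and a highest of 8.79. After the CYTOR LNA the lowest was 7.76, the median 7.88 and the highest 8.04. Every silenced array lay below every control. The group means were 7.90 ± 0.12 and 8.65 ± 0.12 (SD, n = 6 each), a 1.68-fold fall (log2 fold change -0.75, SE 0.066, limma adjusted p = 1.4e-08). Among all 924 ways to split the arrays, the exact permutation test (two-sided) gave p = 0.0022, the smallest it allows. That test leaves out batch, here and for the genes below, and groups without overlap always give its smallest p. Ordered from the lowest fold change, KIF14 stood at place 37 of 12714 genes.

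KIF2A belongs to family 13, whose members do not walk but remove tubulin from microtubule ends, and it acts at spindle poles and in interphase. Its control values had a lowest of 8.24, a median of 8.32 and a highest of 8.40. After the CYTOR LNA they had a lowest of 7.49, a median of 7.58 and a highest of 7.74. The gap between the groups was therefore wider than the range of either. The means were 7.59 ± 0.10 and 8.33 ± 0.06 (SD, n = 6 each), a 1.66-fold fall (log2 fold change -0.73, SE 0.054, limma adjusted p = 5.5e-10, exact permutation p = 0.0022). KIF2A stood at place 39 of 12714. The median fold of all called falls was 1.19.

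KIF15, of family 12, holds the bipolar spindle together beside KIF11 and is brought to the spindle by TPX2. Its 6 control values had a lowest of 7.60, a median of 7.70 and a highest of 7.80. The 6 values after the CYTOR LNA had a lowest of 7.89, a median of 7.97 and a highest of 8.17, all above the controls. The means were 7.999 ± 0.10 and 7.69 ± 0.07 (SD, n = 6 each), a 1.24-fold rise (log2 fold change 0.31, SE 0.054, limma adjusted p = 0.00041, exact permutation p = 0.0022). It stood at place 23 from the highest fold change, and the median fold of all called rises was 1.15.

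KIF4A, a chromokinesin of family 4, binds PRC1 and limits microtubule growth in the spindle midzone. Control values had a lowest of 8.10, a median of 8.16 and a highest of 8.37, and values after the CYTOR LNA a lowest of 8.30, a median of 8.36 and a highest of 8.65. The groups overlapped. The means were 8.41 ± 0.13 and 8.20 ± 0.11 (SD, n = 6 each), a 1.17-fold rise (log2 fold change 0.22, SE 0.065, limma adjusted p = 0.038, exact permutation p = 0.013). The highest value, 8.65, was that of CYTOR LNA replicate 2, the sole silenced array of batch 1. Without it the log2 fold change was 0.12 (limma adjusted p = 0.33, 2.47% of all genes called higher). Nor was KIF4A called without the filter on dim probes, where 1.16% of genes were called higher (limma adjusted p = 0.054), or with array weights, where 2.45% were (0.17, limma adjusted p = 0.12). KIF4B is an intronless copy of KIF4A, so the KIF4A probe may detect both. The probe named for KIF4B was dim, with a fold change of -0.03.

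**Figure D2:**
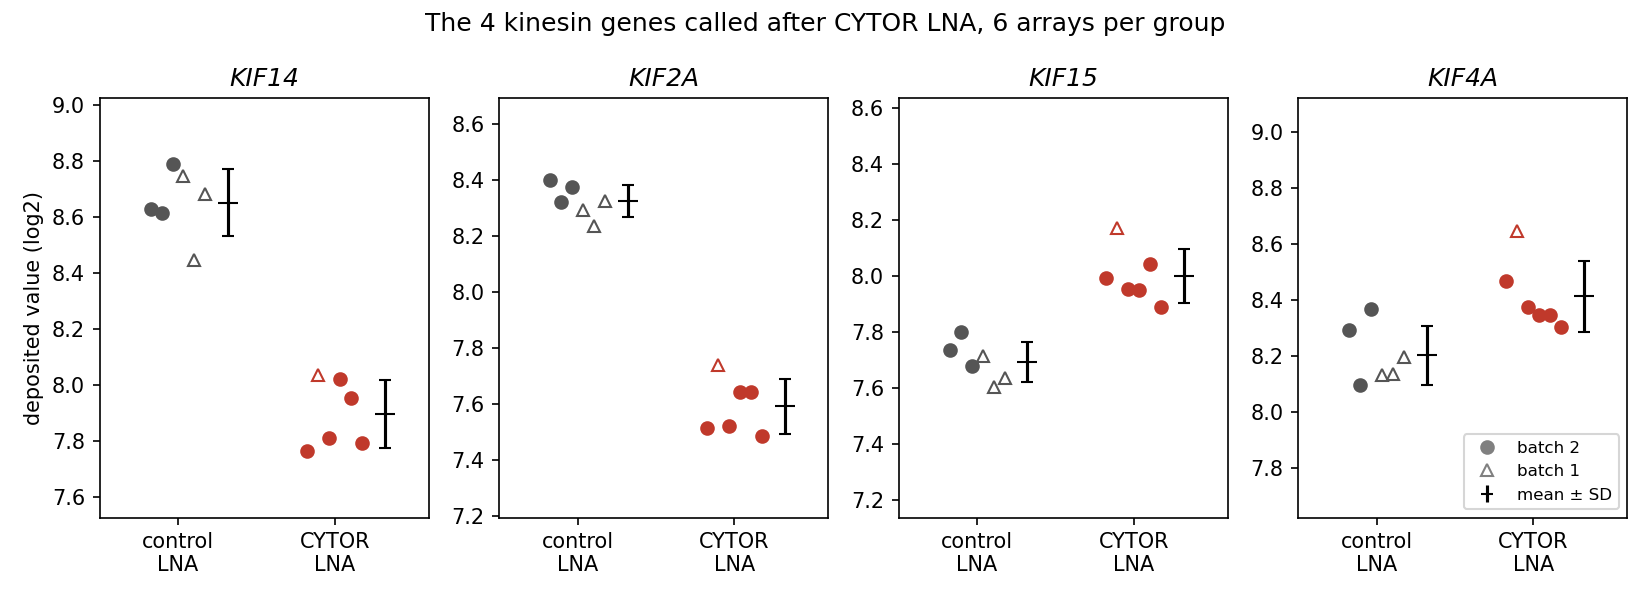
Deposited log2 values (vertical axis, each panel spanning the same range) of the 4 called kinesins in control LNA and CYTOR LNA arrays; circles are batch 2, open triangles batch 1, and bars show the mean ± SD of 6 arrays. The groups are apart for KIF14, KIF2A and KIF15, and overlap for KIF4A, whose highest array is the CYTOR LNA array of batch 1.

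Among the 28 tested members 3, KIF14, KIF2A and KIF15, had groups that did not overlap, 10.7%, against 6.76% of all tested genes. Both falls were larger in batch 2 and both rises larger in batch 1. KIF14 differed by -0.81 within batch 2 and by -0.59 within batch 1. KIF2A differed by -0.80 and -0.55. KIF15 differed by 0.23 and 0.52, and KIF4A by 0.12 and 0.49. Batch 1 rests on 1 silenced array, and its limma fit assumes that this array varies like the controls. In batch 2 alone limma called KIF14 and KIF2A lower, where 4.74% of genes were, and KIF15 higher, where 2.63% were; the adjusted p of KIF4A was 0.35. Within batch 1 limma called KIF14 and KIF2A lower, where 6.65% of genes were, and KIF15, KIF4A and KIF23 higher, where 5.35% were. KIF23 differed by 0.33 there (limma adjusted p = 0.033) and by 0.00 in batch 2, so this call comes from a single silenced array.

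**Figure D3:**
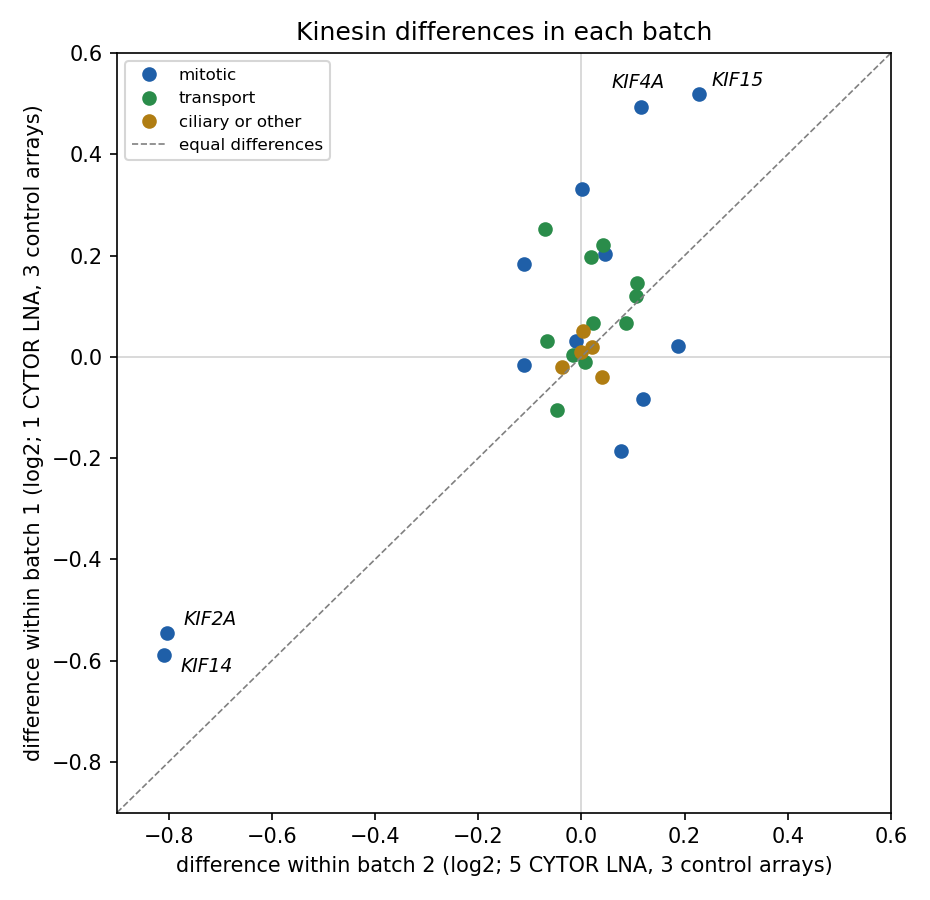
Difference between CYTOR LNA and control arrays (log2) within batch 2 (horizontal axis) and within batch 1 (vertical axis) for the 28 tested kinesins; the dashed line marks equal differences. The 4 called members have the same sign in both batches, with KIF15 and KIF4A above the line at 0.52 and 0.49 in batch 1.

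The 4 called genes were also set against the mean of the 8 uncalled tested mitotic kinesins within each array. Both sides were chosen by the calls on these values, so the differences are a description with no test. The mean of the 8 was 8.935 ± 0.038 after the CYTOR LNA and 8.90 ± 0.036 in controls (SD, n = 6 each), a difference of 0.037. Relative to it, the log2 difference between the groups was -0.79 for KIF14, -0.77 for KIF2A and 0.27 for KIF15, with groups that did not overlap. For KIF4A it was 0.17 with overlapping groups, 0.09 in batch 2 and 0.43 in batch 1.

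Closely related pairs were described in the same way, also without a test. KIF2A and KIF2C are depolymerases of family 13, and KIF2C works at centromeres. The within-array difference of KIF2A minus KIF2C was -1.34 ± 0.15 after the CYTOR LNA and -0.44 ± 0.09 in controls (SD, n = 6 each), and the groups did not overlap. KIF15 minus KIF11 was -1.37 ± 0.07 and -1.61 ± 0.18, with overlapping groups.

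The other 8 tested mitotic kinesins were not called, although most had bright probes. KIF11, which slides spindle microtubules apart, had control values from 9.08 to 9.43 with a median of 9.36, and values from 9.27 to 9.52 with a median of 9.36 after the CYTOR LNA. Its log2 fold change was 0.09 (95% interval -0.04 to 0.22), and its second probe gave 0.00. The KIF11 groups overlapped in the same arrays in which those of KIF15 were apart. KIF2C had control values from 8.70 to 8.85 (median 8.76) and values from 8.78 to 9.02 (median 8.95) after the CYTOR LNA, so the groups overlapped. Its fold change was 0.14 (0.03 to 0.25, limma adjusted p = 0.15). KIF2C differed by 0.19 within batch 2, where its groups did not overlap, and by 0.02 within batch 1, with its 1 silenced array. Without a batch term KIF2C was called (0.16, limma adjusted p = 0.049), and 3.89% of all genes were called higher.

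Motors of cytokinesis other than KIF14 and KIF4A did not pass either. KIF20A, which carries the chromosomal passenger complex to the midzone, ranged from 9.40 to 9.66 in controls (median 9.52) and from 9.44 to 9.67 after the CYTOR LNA (median 9.62). Its log2 fold change was 0.06 (95% interval -0.06 to 0.19). KIF20B, another motor needed to complete division, ranged from 9.42 to 9.60 in controls (median 9.51) and from 9.395 to 9.53 after the CYTOR LNA (median 9.44). Its fold change of -0.08 (-0.20 to 0.03) was the lowest among the uncalled members. KIF23, the motor of the centralspindlin complex, ranged from 8.46 to 8.69 in controls (median 8.595) and from 8.62 to 8.83 after the CYTOR LNA (median 8.675). Its fold change was 0.10 (-0.02 to 0.22), with 0.06 at its second probe, and the groups of each of these motors overlapped.

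KIFC1, a minus-end-directed motor that gathers spindle poles, ranged from 8.59 to 8.90 in controls (median 8.695) and from 8.55 to 8.77 after the CYTOR LNA (median 8.76). Its log2 fold change was 0.00 (95% interval -0.13 to 0.13). The chromokinesin KIF22 also had 0.00 (-0.13 to 0.13), and KIF18A, which aligns chromosomes at the spindle equator, -0.03 (-0.15 to 0.10). No interval of these 8 mitotic kinesins reached the size of the KIF14 or KIF2A fall. As the 8 were picked for having no call on the same values, this follows largely from that choice and is no separate result.

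Among transport motors no change passed. KIF5B, the ubiquitous heavy chain of conventional kinesin, had control values from 8.48 to 8.77 with a median of 8.64, and values from 8.53 to 8.78 with a median of 8.72 after the CYTOR LNA. Its log2 fold change was 0.07 (95% interval -0.06 to 0.20). KIF1B, a carrier of mitochondria and synaptic vesicle precursors, ranged from 8.55 to 8.89 in controls (median 8.66) and from 8.59 to 8.87 after the CYTOR LNA (median 8.69). Its fold change was 0.02, with -0.04 and 0.07 at its other probes. KIF3B, which pairs with KIF3A in the motor of intraflagellar transport, had 0.12 (0.02 to 0.22, limma adjusted p = 0.18). Its second probe gave 0.15 with groups that did not overlap (limma adjusted p = 0.068). When probes of a gene were averaged instead of taking the brightest, KIF3B was called (0.14, limma adjusted p = 0.031), where 3.49% of all genes were called higher. KIF3C, another partner of KIF3A, had 0.11 (limma adjusted p = 0.12), and KIF3A itself -0.01. KIF16B, a motor of early endosomes, had 0.09 (adjusted p = 0.26 by limma) and -0.01 at its second probe. KIFC2, KIF13B, KIF5C, KIF1C and KIF21A lay between -0.06 and 0.08.

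Among the ciliary or less studied members KIF7, which acts in Hedgehog signalling at the ciliary tip, had a log2 fold change of 0.02, KIF24, a centriolar depolymerase, 0.00, and KIF27, KIF26B and KIF6 lay between -0.03 and 0.02. All 24 uncalled members had overlapping groups over the 12 arrays, and their largest fold was 1.10. The outermost bounds of their 95% intervals were -0.20 and 0.25. No further tested probe of a member was called, of 6.

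The remaining 13 members were dim on every probe and were not tested. They included KIF1A, KIF5A, KIF17 and KIF21B, known mainly from neurons, KIF9 and KIF19 of motile cilia, the KIF4A copy KIF4B, KIF2B of family 13, and KIF12, KIF13A, KIF25, KIF26A and KIFC3. Their brightest probes averaged 6.42 to 6.51, below the median of all probes, and their log2 fold changes were -0.04 to 0.04. Fitted without the filter, none was called (lowest limma adjusted p = 0.68, with 0 at an unadjusted p under 0.05). The tested member nearest the filter was KIF26B at 6.54.

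Proteins that work with these motors were read from a list of subunits and partners. Of 28 listed 25 had a probe and 22 were tested, and limma called 0, where 7.89% of all tested genes were called. At an unadjusted p under 0.05 there were 1 lower and 2 higher, 13.6% of the 22 against 21.6% of all tested genes. The binding partners of the called motors are named here after their values were seen. PRC1, which binds KIF14 and KIF4A at the midzone, had a log2 fold change of 0.03 (SE 0.058), and citron kinase, CIT, 0.06 (SE 0.040). TPX2, which binds KIF15, had 0.05 (SE 0.083), and RACGAP1, the partner of KIF23, 0.04 (SE 0.055). The kinesin light chain KLC1 had 0.02, KIFAP3, the third subunit of kinesin family 2 motors, -0.09, the spindle kinesin CENPE -0.02 and the kinesin-binding protein KIFBP 0.21 (limma adjusted p = 0.18). Of 31 tested dynein and dynactin genes, the motor system that runs toward microtubule minus ends, DYNC2I2, an intermediate chain of the ciliary dynein, rose (0.18, SE 0.053, limma adjusted p = 0.039) and limma called 0 lower. The 1 call is 3.23% of the 31, against 7.89% of all tested genes. At an unadjusted p under 0.05 there were 3 lower and 1 higher, 12.9% of the 31 against 21.6% of all tested genes. The median log2 fold change was 0.03 over the partners and 0.00 over dynein and dynactin.

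Mitotic genes other than kinesins are given beside the 4 called members. Of 30 tested, NEK2, a centrosomal kinase, rose (0.18, SE 0.051, limma adjusted p = 0.036), ASPM, a spindle pole protein, fell (-0.28, SE 0.058, adjusted p = 0.0028 by limma), and 28 were not called. By limma 6.67% of the 30 were called, against 7.89% of all tested genes, and 16.7% against 21.6% had an unadjusted p under 0.05. The median log2 fold change of the 30 was 0.05, and 21 were positive. Of all 12714 tested genes 6629 were positive, a smaller share. Whether these shares differ beyond the spread was not tested. The summed linear signal of the 30 was 36658 to 37591 after the CYTOR LNA and 35070 to 36072 in controls, so the silenced arrays were all higher. This sum takes no account of batch and weighs bright probes most. It moved in the direction of KIF15 and KIF4A and against that of KIF14 and KIF2A, and its part in the kinesin results was not tested.

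Bases before the start sites of the 4 called genes are shown because the letters of 2 elements typical of late cell cycle promoters differ between them. These are the cell cycle homology region, CHR, searched as TTTGAA or TTTAAA, and the CCAAT box, searched as CCAAT, each on both strands with overlaps allowed. Capitals mark matches, and the reverse strand forms read TTCAAA and ATTGG. Sequences are from RefSeq, build GRCh38.p14, written 5′ to 3′ on the strand of the gene. For KIF15 and KIF4A the stretch stops where the neighbouring gene, KIAA1143 or PDZD11, begins.
KIF14, chr1:200620752-200621001, minus strand: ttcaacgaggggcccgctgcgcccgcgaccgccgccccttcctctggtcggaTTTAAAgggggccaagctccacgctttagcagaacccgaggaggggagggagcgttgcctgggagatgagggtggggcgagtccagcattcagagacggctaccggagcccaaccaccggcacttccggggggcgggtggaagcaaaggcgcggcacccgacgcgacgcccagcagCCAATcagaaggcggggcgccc
KIF2A, chr5:62305956-62306205, plus strand: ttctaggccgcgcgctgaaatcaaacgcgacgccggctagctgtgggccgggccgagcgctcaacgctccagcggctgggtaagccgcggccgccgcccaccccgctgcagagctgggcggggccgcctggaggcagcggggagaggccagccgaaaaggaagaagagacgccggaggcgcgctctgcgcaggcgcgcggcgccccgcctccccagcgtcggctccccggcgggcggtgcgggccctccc
KIF15, chr3:44761620-44761793, plus strand: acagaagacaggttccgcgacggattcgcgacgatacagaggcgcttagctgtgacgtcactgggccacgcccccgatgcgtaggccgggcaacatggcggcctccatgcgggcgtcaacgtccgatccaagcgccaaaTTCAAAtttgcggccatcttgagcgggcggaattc
KIF4A, chrX:70289928-70290103, plus strand: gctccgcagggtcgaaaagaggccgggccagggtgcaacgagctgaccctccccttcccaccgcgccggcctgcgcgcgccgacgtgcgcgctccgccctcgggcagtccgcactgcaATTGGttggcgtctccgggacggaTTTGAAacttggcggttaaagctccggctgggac
The start site follows the last base. KIF14 held TTTAAA from 198 bases and CCAAT from 22 bases before the start. KIF15 held TTCAAA at 35 bases and no CCAAT box. KIF4A held TTTGAA at 34 and ATTGG at 58 bases. KIF2A, whose stretch is 76.8% G and C, held neither element. So KIF14, which fell, and KIF4A, which rose, both held a match of each element, in different letters and at different distances.

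Over the 250 bases before the start, 33 of the 41 kinesins matched the promoter table. A CHR was found in 7 of 12 tested mitotic kinesins, in 2 of 9 tested transport motors with a promoter and in 0 of 3 ciliary or other ones. A CCAAT box was found in 9, 4 and 2 of these. Of all 35116 promoter windows of this length, 21.9% held a CHR, 32% a CCAAT box and 7.64% both. The units differ, as these shares count windows while a kinesin counts once with a match in any of its windows. Some kinesins have several windows, which gives them more room for a match. Both were present in KIF14 and KIF4A and in 4 of the 8 uncalled tested mitotic members, KIF11, KIF18A, KIF20A and KIF23. A match is a stretch of letters, not a shown binding site.

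The called kinesins are long genes in the RefSeq table. KIF14 spans 69.3 kb, KIF2A 84.8 kb, KIF15 107 kb and KIF4A 131 kb, so the rising pair was longer than the falling pair. The 28 tested members had a median span of 71.3 kb and all tested genes 27.2 kb. Of 2882 tested genes that span 50 to 150 kb, a range chosen after seeing the values, 7.6% were called lower, 2.98% higher and 10.6% in either direction, and 12 of them were kinesins, which held all 4 called members. Longer kinesins were not called, such as KIF26B with 554 kb and a log2 fold change of 0.02, KIF6 with 395 kb and -0.03, and KIF16B with 301 kb and 0.09. Of these, KIF26B and KIF6 averaged 6.54 and 6.58 over all arrays, just above the filter on dim probes. A fall in either could hardly show. The part of gene length in the kinesin falls was not tested.

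**Figure D4:**
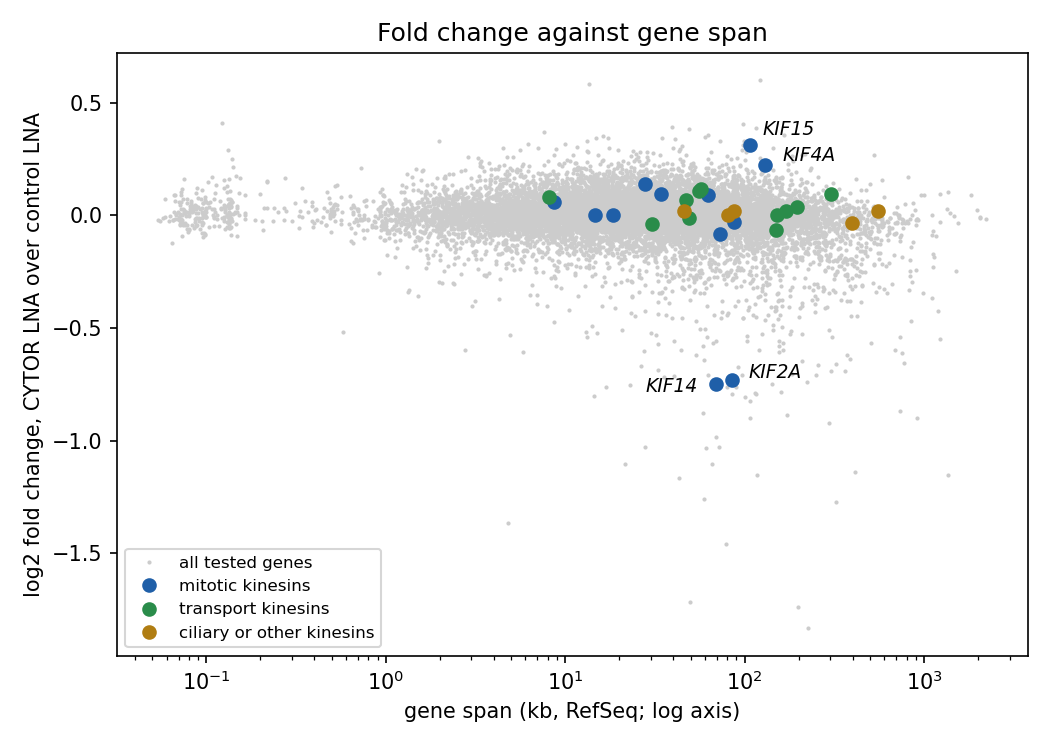
Log2 fold change (vertical axis) against gene span in kb (log axis) for all tested genes with a span (grey) and the 28 tested kinesins (coloured by role). KIF14 and KIF2A, at 69.3 and 84.8 kb, lie below the bulk of genes, and KIF15 and KIF4A, at 107 and 131 kb, above it.

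Neighbouring protein-coding genes of the called kinesins were looked up after the kinesin values were seen. None of those tested was called by limma in the direction of its kinesin. Of all tested genes only 5.4% were called lower and 2.49% higher, so few such calls could be looked for among so few neighbours. Beside KIF14, ZNF281 rose (0.26, SE 0.061, limma adjusted p = 0.0091) and DDX59 had -0.01. Beside KIF2A, IPO11 rose (0.27, SE 0.066, adjusted p = 0.010 by limma), while DIMT1, which overlaps KIF2A in the table, had 0.18 (adjusted p = 0.058 by limma) and ZSWIM6 -0.13. KIAA1143 next to KIF15 had 0.00 and TMEM42, which overlaps KIF15, -0.09, while TGM4 on its other side was not tested. Next to KIF4A, PDZD11 had 0.01 and GDPD2 0.04.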

How the data were processed

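The deposited table held log2 values (the scale read from their range, 6.08 to 13.6), 1 column for each of 12 arrays and 48107 probe rows, of which 784 had no value. Per the submitters' processing notes lumi was used; the sources used here give no version, transformation or normalization for it, so folds of dim probes may be understated. Probes were named through the platform annotation (17202 had no symbol, 8 several and were left unnamed), with symbols updated by gene ID from RefSeq (GRCh38.p14). A gene was represented by its brightest probe. Probes were fitted with limma 3.58.1 under R 4.3.3 (intensity trend, group and batch as terms, 9 residual degrees of freedom) over 23662 probes. No detection p-values were analysed here, and precision is limited by how many arrays there are. On simulated data the test recovered 56% of changes of 0.2 log2, 96% of 0.4 and 100% of 0.8, with 2.76% of calls false. Uncalled members may therefore hold small changes that the test missed. The simulated noise was independent between probes, without a batch effect, and few probes were changed. The recovered and false shares may thus differ on the real arrays. Members, roles and lists were chosen with earlier results of these data known. Values are given for called members and the 8 brightest, and fold changes or ranges for the rest. From other lists up to 4 called genes are named, with KLC1, KIFAP3, CENPE and KIFBP whatever their value. Alternatives varied the batch term, replicate block, batches, filter, normalization, variance model, probe choice and arrays.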

Additional observations from a re-analysis of the deposited data

Results flagged for a closer look

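In 62 groups of 6 arrays examined, 28 kinesins and 3 CYTOR probes in each condition, 1 held an array far from the others, where about 5% would by chance. KIF27 in CYTOR LNA replicate 6 had 6.73, and the next highest array 6.61; its probe is near background.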

How the results depend on the processing

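Over 23 alternatives, among them the fit within batch 1 with its 1 silenced array, KIF14, KIF2A and KIF15 kept their direction and their calls, KIF14 from -0.81 to -0.59, KIF2A from -0.80 to -0.55 and KIF15 from 0.23 to 0.52. KIF4A stayed positive and was called in 13 of 23. These alternatives are not separate checks, as they share arrays. Without CYTOR LNA replicate 2 the fold changes are those of the fit within batch 2, 0.12 for KIF4A. Kinesins called higher numbered 1, KIF15, within batch 2 (KIF4A adjusted p = 0.35 by limma), without a filter on dim probes (0.054) and with array weights (0.12), and 1 to 2 when single arrays were left out; KIF4A lost its call when any of CYTOR LNA arrays 1, 2 and 3 or of control arrays 2, 4, 5 and 6 was left out. All genes called higher, 316, became 494 without a batch term and 680 within batch 1, and 199 to 363 without single arrays, the lowest without control replicate 2. The deviations of same-numbered arrays from their group means correlated by -0.17 to 0.18, and 1 of 6 correlated best with its own number. Batch was left in these deviations, and some same-numbered arrays lie in different batches. The correlations therefore cannot show whether the numbers pair the arrays. The replicate number as a block beside batch left the same 4 kinesins called, 2 lower and 2 higher, with KIF4A at 0.25 (limma adjusted p = 0.023), and called 594 genes lower, 4.67%, and 245 higher, 1.93%. KIF2C passed without a batch term (0.16, limma adjusted p = 0.049). Of the 24 uncalled kinesins 12 changed sign under some alternative, without a call.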
